A study of Homo sapiens with 4 samples.

Results

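SEPTIN9, MAD1L1, HDAC4 and COL23A1 are 4 long human genes in which binding of the transcription factor RUNX1 was recorded at many separate places. They were chosen on the number of RUNX1 regions they hold and on how many of those regions also hold ETS1, so both values are given as descriptions with no test. Binding was measured by CUT&Tag, in which an antibody brings the transposase Tn5 to its target on chromatin and the fragments that Tn5 frees are sequenced. All 4 libraries came from 6T-CEM, a human T-cell acute lymphoblastic leukaemia line, with 2 libraries made with an ETS1 antibody and 2 with a RUNX1 antibody. The labels name no treatment and no engineered allele for any of them, and peaks in each library were called against IgG, the antibody control. The labels do not say whether the replicates of an antibody are separate cultures, so a spread or p-value over libraries may be technical. A reproducible region is the whole stretch of touching or overlapping peaks of an antibody, kept where each of its libraries had a peak. Its fold is the mean over both libraries of the strongest peak's enrichment over IgG. The 4 genes and the 10 kb on each side of them held 123 of 22802 reproducible RUNX1 regions, 121 of these in the genes, and 17 of 5055 reproducible ETS1 regions. The genes are 4 of 19821 protein-coding genes, and 4 of the 3350 that are at least 100 kb long.

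RUNX1 binds DNA through its Runt domain as a heterodimer with CBFB, and in T cells it acts at promoters and at distant enhancers. ETS1 belongs to a family of factors that recognise a GGAA core, and ETS and RUNX sites lie side by side in classic T-cell enhancers. SEPTIN9 encodes a GTP-binding septin, a filament-forming cytoskeletal protein with a role in cytokinesis. MAD1L1 encodes MAD1, which brings MAD2 to unattached kinetochores in the spindle assembly checkpoint. HDAC4 encodes a class IIa histone deacetylase that moves between cytoplasm and nucleus and represses MEF2 target genes. COL23A1 encodes a transmembrane collagen.

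The sequences before 6 transcript starts of these genes are shown because they include starts with and without a reproducible region. Motifs can also be set beside the measured summits. Each is the 250 bases before a start annotated by RefSeq (GRCh38.p14, the assembly of hg38), read 5′ to 3′ on the gene's strand. Capitals mark matches to the RUNX motif TGTGGT or TGCGGT and to the ETS motif AGGAAG or CGGAAG, on either strand. RUNX and ETS matches were counted separately, also where they overlap.
SEPTIN9, outermost start, chr17:77281249-77281498, plus strand, no RUNX1 and no ETS1 region: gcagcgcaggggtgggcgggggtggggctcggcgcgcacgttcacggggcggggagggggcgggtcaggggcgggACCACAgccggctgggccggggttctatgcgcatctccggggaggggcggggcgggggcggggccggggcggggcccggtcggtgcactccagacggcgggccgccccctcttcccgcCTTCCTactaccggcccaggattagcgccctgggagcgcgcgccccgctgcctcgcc
SEPTIN9, start inside the gene, chr17:77373087-77373336, plus strand, RUNX1 and ETS1: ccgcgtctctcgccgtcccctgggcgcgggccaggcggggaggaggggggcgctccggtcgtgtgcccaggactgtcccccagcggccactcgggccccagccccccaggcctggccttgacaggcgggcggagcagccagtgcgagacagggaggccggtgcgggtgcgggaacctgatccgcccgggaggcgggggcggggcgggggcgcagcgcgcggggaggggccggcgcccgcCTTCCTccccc
SEPTIN9, start inside the gene, chr17:77451234-77451483, plus strand, RUNX1 in both libraries: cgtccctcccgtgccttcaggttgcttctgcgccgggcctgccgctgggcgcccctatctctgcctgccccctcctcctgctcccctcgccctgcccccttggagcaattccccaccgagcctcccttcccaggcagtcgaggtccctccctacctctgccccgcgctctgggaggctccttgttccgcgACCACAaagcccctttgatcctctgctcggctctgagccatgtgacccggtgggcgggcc
HDAC4, start inside the gene, chr2:239267515-239267764, minus strand, RUNX1 and ETS1: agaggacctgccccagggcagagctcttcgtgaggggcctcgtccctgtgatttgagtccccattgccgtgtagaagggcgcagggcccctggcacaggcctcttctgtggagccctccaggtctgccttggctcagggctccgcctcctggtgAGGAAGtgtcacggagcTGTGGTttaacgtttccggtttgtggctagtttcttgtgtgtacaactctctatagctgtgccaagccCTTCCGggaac
MAD1L1, single start, chr7:2232946-2233195, minus strand, RUNX1 only: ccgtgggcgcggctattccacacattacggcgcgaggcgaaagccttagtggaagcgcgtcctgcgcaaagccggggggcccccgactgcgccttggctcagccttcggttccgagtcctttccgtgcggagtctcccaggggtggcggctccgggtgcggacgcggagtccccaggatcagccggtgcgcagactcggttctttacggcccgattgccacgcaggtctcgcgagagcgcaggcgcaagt
COL23A1, single start, chr5:178590394-178590643, minus strand, no RUNX1 and no ETS1 region: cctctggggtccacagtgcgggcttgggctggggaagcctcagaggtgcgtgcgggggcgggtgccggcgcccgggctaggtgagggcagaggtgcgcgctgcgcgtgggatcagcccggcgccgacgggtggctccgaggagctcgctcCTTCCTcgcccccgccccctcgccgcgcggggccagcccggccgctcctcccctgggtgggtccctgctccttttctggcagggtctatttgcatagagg

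Among the 6, the RUNX motif closest to a RUNX1 summit was in the third SEPTIN9 sequence, 57 bp before the start and 27 bp from the summit. At that start the RUNX1 fold was 20.3 and 18.9, and 1 ETS1 library alone had a peak there (3.57-fold, replicate 1), with its summit 1 bp from the RUNX1 summit. In the HDAC4 sequence the RUNX motif lay 76 bp before the start and 170 bp from the RUNX1 summit, which fell 94 bp inside the transcript. The second SEPTIN9 sequence held both summits and 1 ETS match but no RUNX match. The MAD1L1 sequence held the RUNX1 summit, 111 bp before the start, and neither motif. The outermost SEPTIN9 start had a RUNX and an ETS match and no reproducible region of either factor. RUNX1 replicate 1 alone had a peak over it (2.91-fold, −log10 q 7.44). A further SEPTIN9 start, at position 77319518 of chromosome 17, had a RUNX match 20 bp from its RUNX1 summit and ETS matches 33 and 37 bp from it. Across the 17 annotated starts of the 4 genes, 4 (23.5%) had a RUNX match and 8 (47.1%) an ETS match. Of 22132 such windows of protein-coding genes, 15.6% had a RUNX match and 43.5% an ETS match. In windows with a RUNX1 region these shares were 16.6% and 49.97%, and in windows without one 14.96% and 38.6%. A match is a string of letters, not a measured site.

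SEPTIN9 (chr17:77281499-77500596, plus strand, 219.1 kb) held 41 and 43 RUNX1 peaks in the libraries, or 19.2 ± 0.645 per 100 kb (SD, n = 2). These formed 38 reproducible regions, 17.3 per 100 kb, the highest density of the 3350 long genes. MAD1L1 (chr7:1815795-2232945, minus strand, 417.2 kb) held 44 and 37 peaks, 9.71 ± 1.19 per 100 kb, and 37 regions, 8.87 per 100 kb. HDAC4 (chr2:239048168-239401649, minus strand, 353.5 kb) held 30 and 29 peaks, 8.35 ± 0.200 per 100 kb, and 25 regions, 7.07 per 100 kb. COL23A1 (chr5:178237618-178590393, minus strand, 352.8 kb) held 22 and 23 peaks, 6.38 ± 0.200 per 100 kb, and 21 regions, 5.95 per 100 kb. SEPTIN9 stood clear of the other genes in both libraries. MAD1L1 and HDAC4 were next to each other: the lower MAD1L1 library (8.87) exceeded the higher HDAC4 library (8.49) by less than the difference between the MAD1L1 libraries. COL23A1 was lowest in both. The median long gene held 0.452 regions per 100 kb, the upper quartile was 0.933, and 1307 (39.0%) held none. The 4 genes ranked 1, 23, 36 and 65 by density and 2, 3, 5 and 7 by number of regions, and 1.94% of long genes were at least as dense as COL23A1. Since the genes were chosen on this, the ranks only say how far out they lie.

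**Figure D1:**
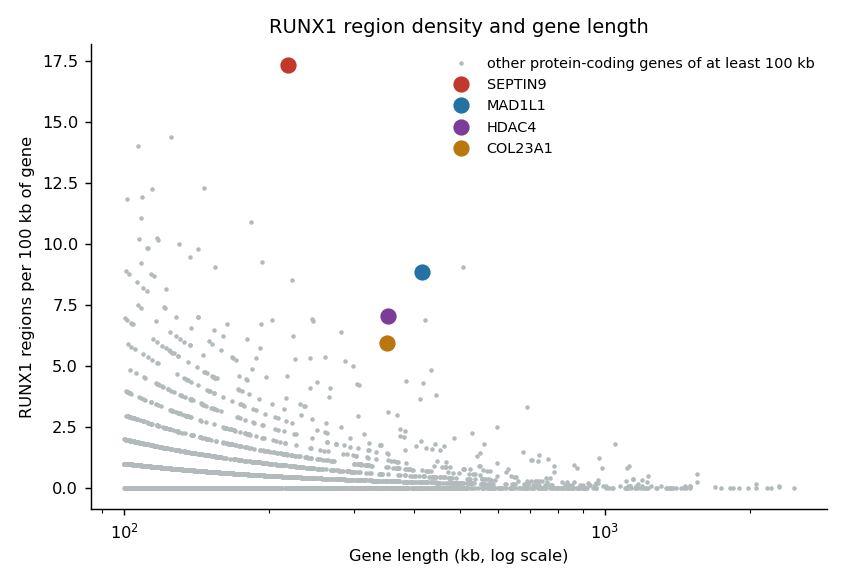
Reproducible RUNX1 regions per 100 kb of gene against gene length in kb (log scale). Each grey point is 1 of the other protein-coding genes of at least 100 kb, and the 4 coloured points are the genes described. SEPTIN9 is the highest point at 17.3 regions per 100 kb, and the other 3 genes lie between 5.95 and 8.87 at lengths from 352.8 to 417.2 kb.

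RUNX1 regions covered 37.9% of SEPTIN9 (83.1 kb), 11.5% of MAD1L1, 9.42% of HDAC4 and 5.39% of COL23A1. The regions in SEPTIN9 were also wider, with a median of 1729 bp against 947, 1082 and 630 bp in MAD1L1, HDAC4 and COL23A1. In SEPTIN9, 18 of 38 regions exceeded 2 kb, and the widest, 8160 bp, spanned 2 annotated starts and 3 ETS1 regions. For all RUNX1 regions the median width was 869 bp, and 10.8% exceeded 2 kb. The median fold was 10.7 in SEPTIN9, 10.8 in HDAC4, 7.41 in COL23A1 and 5.87 in MAD1L1, beside 8.20 over all RUNX1 regions. Thus the typical MAD1L1 region had a lower fold than the typical RUNX1 region, although the gene held the region of highest fold of the 4. By pileup at the summits, in stacked reads or fragments, MAD1L1 was not the lowest. With the 10 kb sides, the median pileup was 84.5 in HDAC4, 71.5 in SEPTIN9, 63.75 in MAD1L1 and 38.5 in COL23A1. The IgG level expected at the summits, in stacked reads or fragments, had the highest median in MAD1L1 (10.8), then SEPTIN9 (7.13), HDAC4 (6.72) and COL23A1 (4.02). Its part in the folds was not tested.

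RUNX1 regions were sparser beside the genes than in them, as was so for 1003 of the 3350 long genes (29.9%) when both sides of 250 kb were pooled. The 4 genes were chosen for a high count inside, so nothing is read from this. SEPTIN9 had 2.0 regions per 100 kb before its 5′ end and 0.8 after its 3′ end, so the gene was 12.4 times as dense as the 2 sides together. The ratio was 4.42 in HDAC4 (2.8 and 0.4 per 100 kb), 3.41 in MAD1L1 (4.0 and 1.2) and 2.29 in COL23A1 (0.8 and 4.4). The 3′ side of COL23A1, with 11 regions in 250 kb, was the densest of the 8 sides. The sides of the median long gene held 0.600 per 100 kb, and Spearman's rho between gene and side density over the 3350 genes was 0.577, a description across genes that share chromosomes and libraries. All 4 genes lay close to a chromosome end, taken as the largest coordinate in the tables: MAD1L1 at 1.82 Mb, HDAC4 at 2.77 Mb, COL23A1 at 2.88 Mb and SEPTIN9 at 5.74 Mb. Only 270 of 3350 long genes (8.06%) lay within 5.74 Mb of an end, and their median density was 1.26 per 100 kb against 0.408 for the other 3080. Over the long genes density was lower in longer genes (rho -0.262) and farther from an end (rho -0.204), both given as descriptions.

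**Figure D2:**
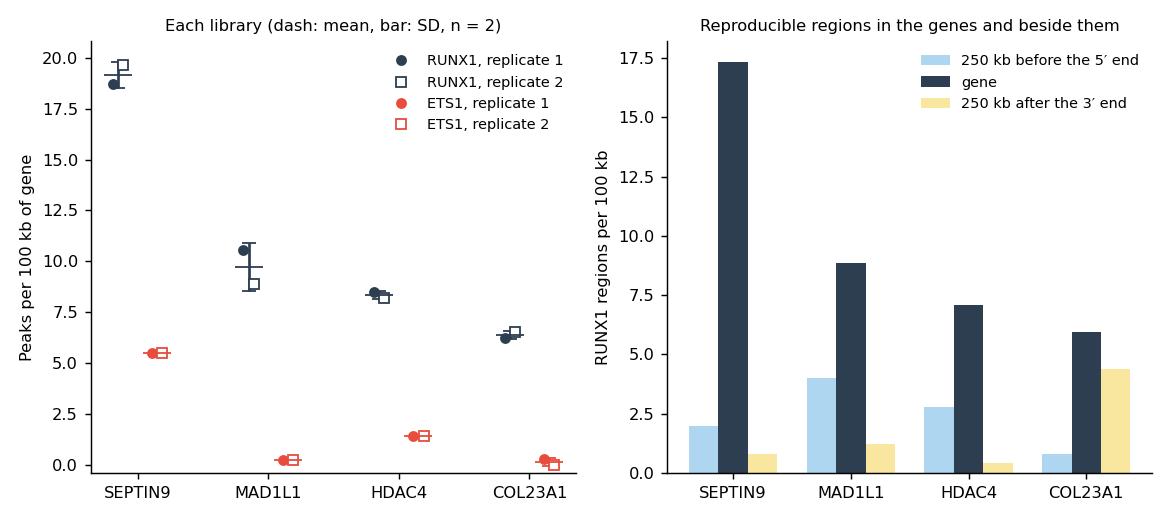
Left, peaks per 100 kb of gene in each of the 4 libraries, with the mean and SD of the 2 libraries of an antibody. Right, reproducible RUNX1 regions per 100 kb in each gene and in the 250 kb beside it. RUNX1 runs from 19.2 in SEPTIN9 to 6.38 in COL23A1, ETS1 from 5.48 in SEPTIN9 to 0.240 in MAD1L1 and 0.142 in COL23A1, and each gene is denser than both of its sides.

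The regions were laid out differently in each gene. In SEPTIN9 neighbouring summits were 3.80 kb apart in the median and never more than 11.03 kb, and 27 of 37 distances were under 5 kb. All 38 summits therefore fell in 1 run with gaps of at most 12.5 kb, which covered 155.9 kb, from 37.9 to 193.8 kb after the 5′ end (71.1% of the gene). With the gene cut into 5 equal parts from the 5′ end, the summits numbered 2, 12, 9, 11 and 4. With a gap limit of 5 kb the longest run in SEPTIN9 was 8 summits over 29.1 kb.

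MAD1L1 had almost the same median spacing, 3.44 kb, but left a stretch of 77.3 kb free of summits, from 17.0 to 94.3 kb after the 5′ end. Its longest run held 18 summits in 48.4 kb, from 264.2 to 312.5 kb, and no other summit lay in part 4 of its 5 equal parts, which held 1, 9, 4, 18 and 4 summits. With gaps of at most 5 kb the longest run was 13 summits over 31.9 kb, longer in number than that of any of the other 3 genes at this limit.

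HDAC4 was crowded towards its 5′ end: 23 of 25 summits lay nearer to the 5′ than to the 3′ end, and the 5 parts held 5, 13, 6, 1 and 0. The median spacing was 5.78 kb, and the longest run (gaps of at most 12.5 kb) held 15 summits from 92.4 to 170.1 kb. The last summit, 43.6-fold, lay alone at 237.2 kb, after 52.5 kb without one. Counted by parts, COL23A1 was the most evenly filled, with 4, 5, 3, 4 and 5 summits. It was also the most widely spaced, with a median of 11.97 kb and a longest run of 7 summits. The distances themselves were uneven, and the shortest was 1434 bp. Its longest distance, 57.0 kb, lay between 283.9 and 340.9 kb.

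**Figure D3:**
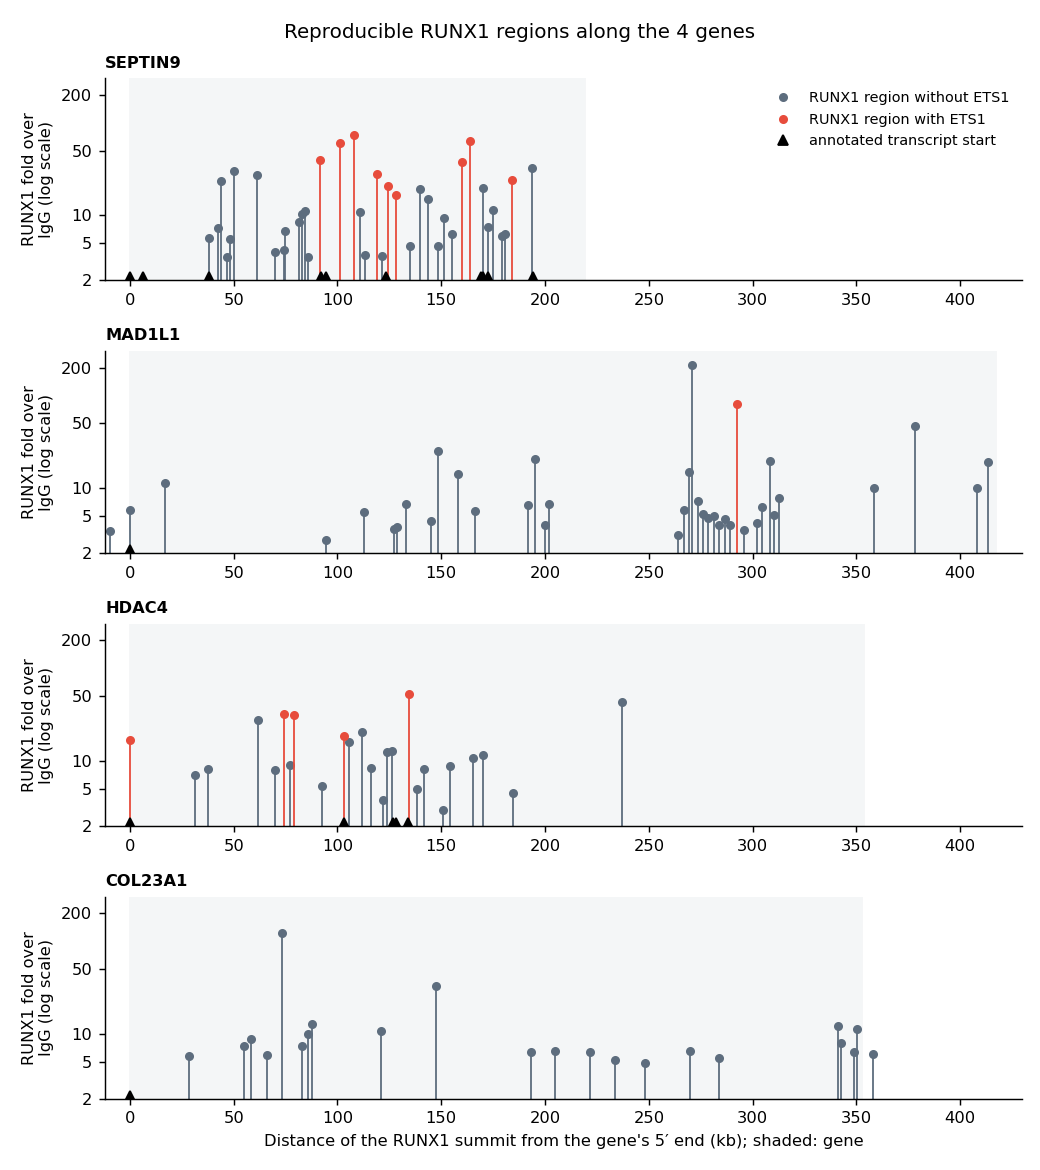
Each panel is 1 gene, drawn from its 5′ end on the same kb scale, with the gene shaded. Each stem is a reproducible RUNX1 region at its summit, and its height is the mean fold over IgG of 2 libraries on a log axis. Red stems hold an ETS1 region and triangles are annotated transcript starts. Stems fill SEPTIN9 from 37.9 to 193.8 kb, crowd between 264.2 and 312.5 kb in MAD1L1, lie mostly near the 5′ side of HDAC4 and spread along COL23A1, where none is red.

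**Figure D4:**
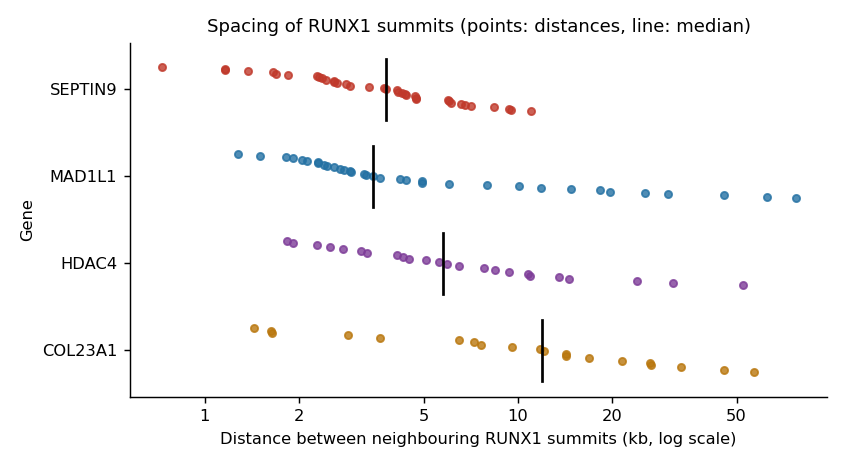
Distances between neighbouring RUNX1 summits in each gene (kb, log scale), with 1 point per distance and a line at the median. The medians are 3.80 kb in SEPTIN9, 3.44 kb in MAD1L1, 5.78 kb in HDAC4 and 11.97 kb in COL23A1, and MAD1L1, HDAC4 and COL23A1 reach distances above 50 kb while SEPTIN9 ends at 11.03 kb.

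Of the 123 regions, 11 came within 1 kb of an annotated start of the 4 genes, and 13 (10.6%) within 1 kb of a start of any protein-coding gene. Over the RUNX1 regions of all long genes this share was 28.9% (1427 of 4946), and over all RUNX1 regions 33.4% (7394 of 22117), on chromosomes with starts in the table. The 4 genes were chosen for many regions, so the lower share is given as a description, and its cause was not tested. A RUNX1 region overlapped the window from 250 bp before to 50 bp after the start at 13 of 17 starts (8 of 10 in SEPTIN9, 4 of 5 in HDAC4, 1 of 1 in MAD1L1 and 0 of 1 in COL23A1), and an ETS1 region at 6 (3 in SEPTIN9 and 3 in HDAC4). Over all 22132 windows of protein-coding genes the shares were 43% for RUNX1 and 17.6% for ETS1. Several starts share a region, so the 17 are not independent. The outermost start was bound by both factors in HDAC4 (RUNX1 16.1- and 17.8-fold, ETS1 7.40- and 7.51-fold), where the region also overlapped the annotated antisense gene HDAC4-AS1. In MAD1L1 the start had RUNX1 at 5.79- and 5.78-fold without ETS1. The outermost starts of SEPTIN9 and COL23A1 had no reproducible region of either factor, though RUNX1 replicate 1 alone had a weak peak at that of SEPTIN9 (2.91-fold). The first summits of reproducible RUNX1 regions lay 37.9 kb into SEPTIN9 and 28.4 kb into COL23A1.

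Transcripts annotated within SEPTIN9 overlapped several of its regions: the long noncoding RNA gene LOC112268199 held 5 RUNX1 regions and no reproducible ETS1 region. ETS1 replicate 2 alone had a peak there, in a RUNX1 region (4.85-fold, −log10 q 12.3). LOC112268198 held 1 region of each factor, with RUNX1 at 63.4-fold. None of the annotated miRNA genes within these genes (MIR4316 in SEPTIN9, MIR4655 in MAD1L1, MIR4440, MIR4441, MIR4269 and MIR2467 in HDAC4) overlapped a region.

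ETS1 was unevenly spread over the 4 genes. SEPTIN9 held 12 ETS1 peaks in each library, HDAC4 5 in each and MAD1L1 1 in each. COL23A1 held 1 in ETS1 replicate 1 and 0 in replicate 2. ETS1 regions lay in 9 of 38 RUNX1 regions of SEPTIN9 (23.7%, 95% Wilson interval 13.0 to 39.2) and in 5 of 25 of HDAC4 (20%, 8.86 to 39.1). They lay in 1 of 37 of MAD1L1 (2.70%, 0.479 to 13.8) and in 0 of 21 of COL23A1 (0%, 0 to 15.5). The intervals cover counting error only. Regions of a gene are not independent trials, so the intervals are no test of a difference between genes. The share over all RUNX1 regions in long genes was 13.9%. Among the 72 long genes with at least 10 RUNX1 regions the median share was 13.6% (quartiles 6.32 and 20), and 15 (20.8%) had no ETS1 region in any, as COL23A1 did. All 17 ETS1 regions lay in RUNX1 regions. Over all chromosomes used, 4691 RUNX1 regions held ETS1, beside 5055 ETS1 regions in all. Such overlap was thus common. These are counts of different regions, since 1 RUNX1 region can hold several ETS1 regions: here 15 RUNX1 regions held the 17. The share of all ETS1 regions that lay in RUNX1 regions is not given here. The 17 of 17 is therefore not read as a trait of these genes.

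ETS1 was found mainly at strong RUNX1 regions. The 15 RUNX1 regions with ETS1 had a median fold of 32.0 (16.6 to 81.1), a median width of 3282 bp and a median summit pileup (stacked reads or fragments) of 344. The 108 without ETS1 had medians of 6.92-fold, 971 bp and 54.5. The lowest fold of a region with ETS1, 16.6, thus exceeded the median of the others, while the highest fold of all, 215, had no ETS1. Above 20-fold, ETS1 was present in 8 of 12 regions of SEPTIN9, 3 of 6 of HDAC4, 1 of 5 of MAD1L1 and 0 of 2 of COL23A1. The same relation held over the long genes: in 10 equal groups by RUNX1 fold, the share with ETS1 was 1.16% in the weakest and 44.5% in the strongest. When each region was given the share of its own fold group, SEPTIN9 came to 7.16 regions with ETS1 (9 measured), HDAC4 to 4.73 (5 measured), MAD1L1 to 4.28 (1 measured) and COL23A1 to 2.53 (0 measured). As shares these are 18.9%, 18.9%, 11.6% and 12.1%. The genes were chosen partly on their ETS1 regions, so these values are set beside the measured ones with no test. The fold groups took no account of region width, although an overlap of 1 bp counted as shared. The median width was 1729 bp in SEPTIN9, 1082 bp in HDAC4, 947 bp in MAD1L1 and 630 bp in COL23A1. Over RUNX1 regions in long genes it was 827 bp.

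The share depended on how a shared region was defined. With each library reduced to its 5611 strongest peaks it was 64.3% in SEPTIN9, 71.4% in HDAC4, 12.5% in MAD1L1 (1 of 8 regions) and 0% in COL23A1 (0 of 2), and with a reciprocal overlap of 50% it was 2.63%, 8%, 0% and 0%. SEPTIN9 and HDAC4 thus changed places, while both lay above MAD1L1 and COL23A1 in every alternative run.

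**Figure D5:**
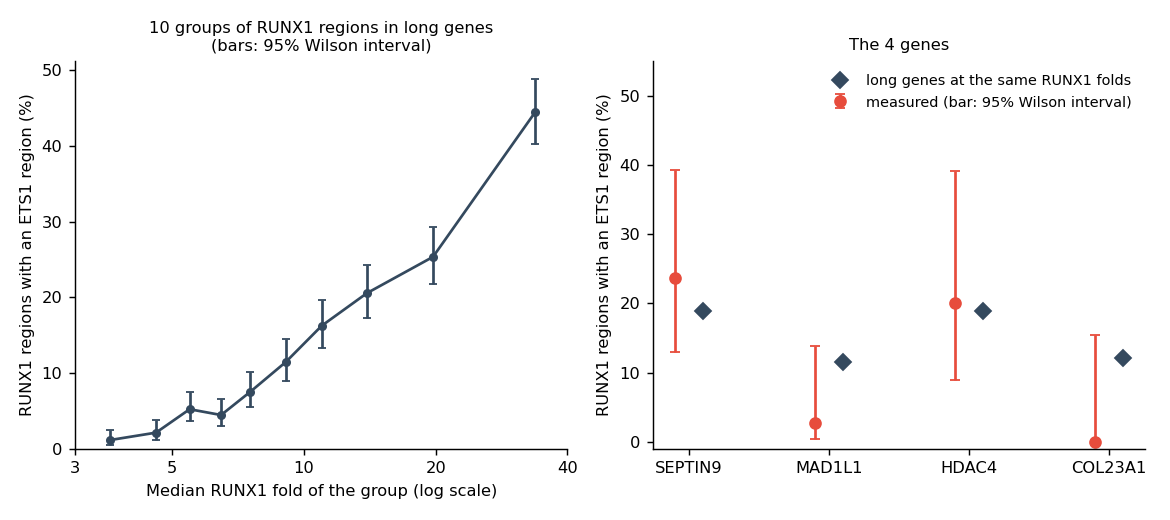
Left, share of RUNX1 regions in long genes that hold an ETS1 region, in 10 equal groups by RUNX1 fold (x axis, median fold, log scale), with 95% Wilson intervals. Right, the share in each of the 4 genes with its interval (circles) and the share of long-gene regions at the same folds (diamonds). The share rises from 1.16% to 44.5% on the left, and on the right the diamonds stand at 18.9%, 11.6%, 18.9% and 12.1% beside measured shares of 23.7%, 2.70%, 20% and 0%.

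In SEPTIN9 the strongest RUNX1 regions were also the strongest ETS1 regions. At 108.1 kb after the 5′ end RUNX1 was 73.1- and 72.9-fold and ETS1 12.6- and 11.3-fold. At 164.0 kb RUNX1 was 65.6- and 61.2-fold and ETS1 9.91- and 9.78-fold. At 101.0 kb RUNX1 was 60.4- and 61.5-fold and ETS1 7.36- and 8.62-fold. Both libraries of each antibody ranked the region at 108.1 kb above the other 2, and 92.2% of ETS1 regions had a lower ETS1 fold than it. In ETS1 replicate 1 the ETS1 regions at 91.7 kb (8.58-fold) and 160.1 kb (7.67-fold) were above that at 101.0 kb. Over the 5 equal parts, the RUNX1 regions with ETS1 numbered 0, 0, 6, 2 and 1, so none lay in parts 1 and 2, although part 2 held 12 RUNX1 summits. The strongest SEPTIN9 region without reproducible ETS1 was the last, at 193.8 kb (32.1- and 33.4-fold), over an annotated start.

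The 2 strongest MAD1L1 regions lay 21.4 kb apart, 1 without and 1 with ETS1. The first, chr7:1961501-1962387, 271.0 kb after the 5′ end, had RUNX1 at 205- and 225-fold with pileups of 980 and 1030 over an IgG expectation of 3.78 and 3.59, and no ETS1 peak in either library. Only 72 of all 22802 RUNX1 regions exceeded 100-fold. The second, chr7:1938723-1942768, at 292.4 kb, had RUNX1 at 80.4- and 81.9-fold with larger pileups of 1132 and 1100 over a higher IgG expectation of 13.1 and 12.4. It held the only ETS1 region of the gene (5.69- and 6.09-fold), with the ETS1 summit 12 bp from the RUNX1 summit. By pileup the region with ETS1 was thus the higher one, and by fold the lower. The next region of MAD1L1, at 378.0 kb, had RUNX1 at 48.6- and 46.2-fold and no ETS1.

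In HDAC4 the strongest region, chr2:239264451-239268826, covered the start inside the gene whose sequence is shown above. RUNX1 was 53.9- and 51.9-fold and ETS1 6.40- and 6.14-fold, with summits 134.2 kb after the 5′ end. The isolated region at 237.2 kb followed with 44.1- and 43.0-fold and no ETS1. At 74.5 kb RUNX1 was 33.3- and 30.7-fold with weak ETS1, 3.75- and 4.25-fold. The strongest ETS1 region by mean, at 79.2 kb, differed between libraries (10.4- and 5.05-fold), whereas that at the outermost start did not (7.40- and 7.51-fold). Of the 5 regions with ETS1, 1 lay in part 1 and 4 in part 2 of the gene.

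In COL23A1 1 region stood far above the rest: chr5:178515082-178517793, 73.4 kb after the 5′ end, with RUNX1 at 123- and 119-fold and no ETS1 peak. The next, at 147.4 kb, had RUNX1 at 31.1- and 35.1-fold. It held the only ETS1 peak of the gene, found in replicate 1 alone at 4.79-fold (−log10 q 9.87), 2 bp from the RUNX1 summit. The third, at 87.5 kb, was 11.9- and 13.6-fold, and its mean, 12.7, was above that of the other 18 regions. In replicate 1, the regions at 340.9 and 350.5 kb were higher than it, at 12.63- and 12.59-fold.

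In the 15 RUNX1 regions with ETS1, the RUNX1 summit lay a median of 33 bp from the nearest reproducible ETS1 summit. It was within 100 bp in 10 of them (5 of 9 in SEPTIN9, 4 of 5 in HDAC4 and 1 of 1 in MAD1L1). In the other 5 the distance was 194, 233, 241, 340 and 955 bp. The 2 further ETS1 regions in the widest SEPTIN9 region, with summits 93.2 and 94.9 kb after the 5′ end, lay farther from its RUNX1 summit at 91.6 kb and are not among these distances. Distances in shared regions of other genes are not given here, so close summits are not read as particular to these genes. Peaks of RUNX1 in the 4 genes were wider than those of ETS1: the median was 847 and 880.5 bp in the RUNX1 libraries and 765 and 704 bp in the ETS1 libraries, a difference of 129 bp. The median fold was 7.04 and 7.37 against 6.42 and 5.80, a difference of 1.09. Over all peaks of each library the median fold was 7.58 and 7.70 for RUNX1 and 5.48 and 5.65 for ETS1. A higher RUNX1 fold is thus not particular to these genes. Widths over all peaks are not given here. The 4 genes entered their own medians unequally. SEPTIN9 held 12 of 19 and 12 of 18 ETS1 peaks, and 41 of 139 and 43 of 134 RUNX1 peaks. In SEPTIN9 alone the median widths were 1466 and 1440 bp for RUNX1 and 798.5 and 790.5 bp for ETS1. In MAD1L1, with 1 peak per ETS1 library, the fold was lower for RUNX1 (5.53 against 5.69, 6.01 against 6.09). In the other genes it was higher where both could be compared. The libraries of the antibodies did not overlap in either pooled value. A two-sided exact permutation test over the 4 libraries gave p = 0.333 for each, the smallest p that 2 against 2 allows, so neither difference can be called.

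The genes of the same families and pathways, most of them much shorter, held from 0 to 7 RUNX1 regions each in or within 10 kb of the gene. A RUNX1 region in the gene or within 10 kb was present at 62.3% of all protein-coding genes and an ETS1 region at 27.5%. Of 12 other septin genes, 8 had a RUNX1 and 5 an ETS1 region. The most RUNX1 regions was 5, at SEPTIN6, whose product joins SEPTIN9 in filaments. Of 10 other histone deacetylase genes 8 had RUNX1 and 7 had ETS1. HDAC7, another class IIa enzyme and one prominent in thymocytes, had 7 RUNX1 regions in or near 38.6 kb, while the long genes HDAC8 (243.3 kb) and HDAC9 (915.6 kb) had 0. Of 11 other spindle checkpoint genes 10 had RUNX1 and 5 ETS1, with at most 3 RUNX1 regions each, at CDC20. Of 3 other transmembrane collagen genes only COL13A1 had RUNX1, with 1 region, and none had ETS1. Per length of gene, several short relatives were as dense as or denser than their long one: HDAC10 held 49.3 regions per 100 kb (3 in 6.08 kb), SEPTIN1 42.7 (2 in 4.68 kb), CDC20 23.7 (1 in 4.22 kb), MAD2L1BP 17.5 (2 in 11.4 kb) and HDAC7 12.9 (5 in 38.6 kb). These densities rest on 1 to 5 regions. As a check of the cell line, all 9 T-cell marker genes had a RUNX1 and 8 an ETS1 region. RUNX1 was also present at 3 of 5 B-cell, 5 of 5 myeloid and 2 of 4 epithelial marker genes, and ETS1 at 2, 1 and 0 of these, so presence of a RUNX1 region alone did not separate the lineages.

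The long genes most like each of the 4 were found among the 72 with at least 10 RUNX1 regions, by the distance in standardised log2 density, ETS1 share and log2 median fold. The other members and 1 further gene, which is not reported here, were left out as candidates. RAI1 was nearest to SEPTIN9, with 10 regions per 100 kb and ETS1 in 23.1% of 13, well below the density of SEPTIN9. TOX2, an HMG-box factor gene, was nearest to MAD1L1, with 9.05 per 100 kb and ETS1 in 7.14% of 14. RAP1GAP2, for a GTPase-activating protein of RAP1, was nearest to HDAC4, with 6.38 per 100 kb and ETS1 in 16.7% of 18. AGPAT3, for a lipid acyltransferase, was nearest to COL23A1, with 8.17 per 100 kb and ETS1 in 0 of 10, followed by IQSEC1 with 4.40 per 100 kb and ETS1 in 0 of 17. The next nearest were LOC128462377 for SEPTIN9, NRXN2 for MAD1L1 and RAI1 again for HDAC4.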

How the data were processed

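Per the submitters' processing notes, the tools were bcl2fastq 2.17, Bowtie2 and MACS3 3.0.0a6, and the build hg38. For each peak the authors' deposited lists give position, summit, fold enrichment over IgG (a ratio), −log10 p and −log10 q, and a score that was not used. For the Bowtie2 version, the call threshold, duplicate handling and read totals, nothing is given in the sources used here. In the lists, the lowest −log10 q was 5.00 to 5.03, and the peaks used, on chromosomes 1 to 22 and X, numbered 6070 and 5611 for ETS1 and 25356 and 24997 for RUNX1.

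Touching or overlapping peaks of an antibody were joined across its libraries, and a joined region was kept where each library had a peak. A RUNX1 region had ETS1 if it overlapped an ETS1 region by at least 1 bp. Pileup and IgG expectation were solved from the deposited fold and −log10 p, matching −log10 p within 0.01 or its rounding, for all 246 of 246 values at the RUNX1 regions. Gene bounds came from a RefSeq table of GRCh38.p14, in which all 4 symbols matched, and 153 protein-coding genes listed by scaffold coordinates were left out. Transcript starts and sequences came from a RefSeq promoter table, which is not complete. Python 3.11.15, pandas 2.3.3 and SciPy 1.17.1 were used, and merging, overlap and the pileup solution were tested on simulated data.

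The members and lists were chosen with earlier results of these data known. Named regions are the 3 strongest RUNX1 and the 3 strongest ETS1 regions of each gene, and named like genes are the 2 nearest to each. Other genes and regions in the text were named after their values were seen. Peak width and fold of the antibodies were set against each other in an exact permutation test over libraries. Alternatives were a −log10 q of at least 20, equal peak numbers, other overlap rules, peaks of either library, the 10 kb sides and leaving out each replicate, and a gap limit of 5 kb added after the data were seen.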

Additional observations from a re-analysis of the deposited data

How the results depend on the processing

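The number of peaks kept and the overlap rule moved the values most. The width and fold differences between the antibodies stayed above 0 in their alternatives. Densities and shares cannot change sign, and many of them moved. RUNX1 regions per 100 kb in SEPTIN9, MAD1L1, HDAC4 and COL23A1 were 11.4, 5.51, 5.38 and 3.12 with a −log10 q of at least 20. They were 6.39, 1.92, 1.98 and 0.567 with 5611 peaks per library, where HDAC4 passed MAD1L1, and 18.7, 10.5, 9.34 and 6.52 with a peak in either RUNX1 library. With 10 kb on each side they were 15.9 in SEPTIN9 and 6.69 in HDAC4. Leaving out a replicate gave 18.7 to 19.6, 8.87 to 10.5, 8.20 to 8.49 and 6.24 to 6.52. The share with ETS1 in SEPTIN9, MAD1L1 and HDAC4 was 12%, 4.35% and 10.5% with a −log10 q of at least 20, 64.3%, 12.5% and 71.4% with equal peak numbers, and 2.63%, 0% and 8% with a reciprocal overlap of 50%. An ETS1 peak in either library gave 28.9% in SEPTIN9 and 4.76% in COL23A1, and a rule counting any ETS1 peak summit of either library within 100 bp of any RUNX1 peak summit also gave 4.76% in COL23A1, through the same peak of a single library. Leaving out a replicate gave 23.3% to 24.4% in SEPTIN9, 2.27% to 2.70% in MAD1L1, 16.7% to 17.2% in HDAC4 and 0% to 4.55% in COL23A1. The cause of these shifts was not tested. By construction, fewer weak regions enter with a stricter limit, and a narrow ETS1 region in a wide RUNX1 region cannot reach a reciprocal overlap of 50%. Leaving out a replicate gave a width difference of 82 to 176.5 bp and a fold difference of 0.620 to 1.57, values with no test. With the replicate number as a block the differences stayed 129 bp and 1.09, and the exact permutation p was 0.5, the smallest that the block allows. Replicate 1 minus replicate 2 of the 2 antibodies was hardly related over 4961 shared regions (r = 0.022). This value cannot tell whether libraries with the same replicate number shared a culture or batch. The read depth is unknown, so a region absent from a list was not detected at that depth.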
